A study of Mus musculus with 6 samples.

Results

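The genes described here are 10 genes of the heparan sulfate proteoglycan system: the syndecans Sdc1, Sdc2, Sdc3, and Sdc4, the glypican Gpc1, the secreted proteoglycans Agrn and Hspg2, the chain enzymes Ext1 and Ndst1, and the granule proteoglycan Srgn. They are 10 of the 54232 genes in the files. The list was chosen by the WT to Ifnar1-/- differences of Sdc3 and Agrn in these same libraries, so the differences of those 2 genes are given as a description, without a p-value. The rule did not use the values of the other 8 genes. In all, 8 of the 10 genes had enough reads to be tested, and Sdc2 and Hspg2 did not.

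The data are RNA-seq of monocytes sorted from the CNS of mixed bone marrow (BM) chimeras with experimental autoimmune encephalomyelitis (EAE), a mouse model of multiple sclerosis. The groups were WT monocytes from CD45.1 donors (n = 3 libraries) and Ifnar1-/- monocytes from CD45.2 donors (n = 3 libraries), both sorted as GFP-CD45+CD11b+Ly6ChiLy6G- cells. Recipients of both marrows were GFP+ mice irradiated with 2 doses of 550 rad, given WT and Ifnar1-/- marrow in equal parts, used for EAE induction 6 to 7 weeks later, treated daily with 30000 IU of rIFN-β, and killed at disease peak. No library from mice without rIFN-β was analysed here, so the comparison asks how monocytes that can and cannot sense type I IFN differed in the same treated hosts. The CD45 allele of the donor and the Ifnar1 genotype cannot be told apart. As every recipient was given both marrows, both genotypes were sorted from the same set of mice. Which WT and Ifnar1-/- libraries share a mouse is not given. The main fit therefore took the libraries as unpaired, and a replicate block was used as an alternative. Where no label ties a library to its own animal, p-values measure only the spread between these libraries.

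A heparan sulfate proteoglycan is a core protein with long sulfated sugar chains attached, and the chains bind growth factors, chemokines, and proteins of the extracellular matrix. Syndecans span the cell membrane, glypicans are held on its outer face by a lipid anchor, agrin and perlecan (the product of Hspg2) are laid down in basement membranes, and serglycin (the product of Srgn) is packed into the granules of blood cells. In the CNS, agrin and perlecan are part of the basement membranes of blood vessels, which leukocytes cross when they enter the tissue in EAE. IFNAR1 is a subunit of the receptor for type I IFN, whose signal reaches genes through a DNA element called the IFN-stimulated response element (ISRE).

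Libraries held 4531782 to 7321380 expected counts in WT and 5442568 to 6916101 in Ifnar1-/-, and 3 counts, the floor used here, corresponded to 0.427 to 0.638 normalized CPM (counts scaled to the size of the library). Of 11254 genes tested, 188 were upregulated and 52 downregulated in WT against Ifnar1-/- monocytes (edgeR quasi-likelihood test, adjusted p of at most 0.05 and fold change of at least 1.5), which is 2.13% of the genes tested. Of 20 IFN-stimulated genes, 18 were upregulated in WT, with a median log2 fold change of 3.84 against -0.01 for all genes tested. The targeted gene, Ifnar1, had 111 to 153 normalized CPM in WT and 102 to 110 in Ifnar1-/- libraries, so the groups did not overlap, by a narrow margin, and the difference did not pass the test (log2 fold change 0.28, edgeR adjusted p = 0.360). The mean transcript length assigned to Ifnar1 was 3552, 3198, and 3307 bases in WT and 2219, 2284, and 2471 bases in Ifnar1-/- libraries, also without overlap. On the TPM scale, which uses that length, the log2 ratio of group means was -0.29. Monocyte markers summed to 8598 to 10624 normalized CPM in WT and 9044 to 10718 in Ifnar1-/- libraries.

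Markers of most other cells that a CNS sort could hold were low beside the monocyte sums, but neutrophil markers were not. Those reached 2221 normalized CPM in WT replicate 3 and 2595 in Ifnar1-/- replicate 3. Some markers differed between the groups. Endothelial markers summed to 115 to 237 normalized CPM in WT and 70.8 to 106 in Ifnar1-/-, mostly from Flt1, and Kdr and Vwf were the 2 of 4 tested endothelial markers that were upregulated in WT. The endothelial junction genes Cdh5 and Cldn5 did not exceed 1.99 and 0.59 normalized CPM in any library. T cell markers summed to 96.3 to 130 in WT and 47.6 to 56.9 in Ifnar1-/-, mostly from Il7r, and 0 of 8 tested passed edgeR, 6 having an unadjusted p under 0.05 (17.8% of all genes tested did) and DESeq2 calling 1. Fibroblast and mural cell markers summed to at most 1.85, with Pdgfra at 0 counts. The B and plasma cell sum was 6.59 to 11.4 in WT and 3.56 to 12.1 in Ifnar1-/-, mostly from Ighm, with Pax5, Jchain, and Mzb1 at 0. Mast cell and basophil markers summed to 10.4 to 22.5 and 5.42 to 15.1, mostly from Hdc and Kit, with Cpa3, Fcer1a, Mcpt4, and Tpsb2 at 0. Neutrophil (232 to 2221 and 699 to 2595), microglia (257 to 330 and 297 to 374), and astrocyte and oligodendrocyte markers (73.3 to 92.0 and 63.5 to 86.6) overlapped between the groups. Ly6c2, one of the genes of the antigen used in the sort, was itself higher in WT, with 726, 788, and 640 normalized CPM against 177, 300, and 337 (log2 fold change 1.40, edgeR adjusted p = 0.00957).

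The 10 genes differed widely in level in these monocytes. By median TPM, a scale corrected for transcript length, the order over the 6 libraries was Srgn at 1365, Sdc4 at 200, Sdc3 at 106, Sdc1 at 21.7, Ndst1 at 13.7, Ext1 at 10.3, Gpc1 at 4.01, Agrn at 2.69, Hspg2 at 0.01, and Sdc2 at 0. Serglycin therefore stood above every core protein of the cell surface, and the perlecan and syndecan-2 genes were at the floor. Differences between neighbours in this order were tested on log2(TPM + 0.1) with a two-sided exact permutation test over 6 libraries, which cannot give a p below 0.03125. The test takes the libraries as independent. As both genotypes came from the same set of mice, its p-values may be too small and do not measure the spread between mice. Srgn exceeded Sdc4 in 6 of 6 libraries by 2.86 ± 0.29 (SD) on the log2 scale (exact permutation p = 0.03125, adjusted over 9 pairs 0.0563). Ndst1 exceeded Ext1 in 6 of 6 libraries by 0.44 ± 0.29, and Ext1 exceeded Gpc1 in 6 of 6 by 1.47 ± 0.71, both with the same exact permutation p. Sdc1 exceeded Ndst1 in 5 of 6 libraries by 0.54 ± 0.58, with single libraries from -0.35 to 1.16, so this pair was not separated beyond its spread (exact permutation p = 0.0938, adjusted 0.141). Hspg2 and Sdc2 differed by 0.08 ± 0.34 (exact permutation p = 0.625). No pair fell under 0.05 after Benjamini-Hochberg adjustment. The places of Sdc3 and Agrn depended on the genotype and are given without a p-value, although their pairs were counted in the adjustment over 9 pairs. Sdc4 exceeded Sdc3 by 1.19 ± 1.56 over 5 of 6 libraries, Sdc3 exceeded Sdc1 by 2.00 ± 1.26 over 6 of 6, and Gpc1 exceeded Agrn by 0.58 ± 0.79 over 4 of 6.

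**Figure D1:**
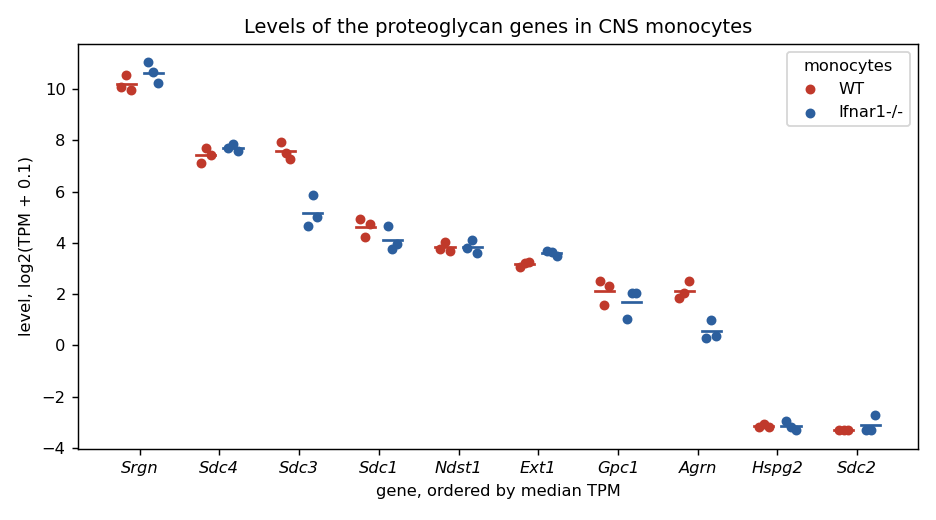
Levels of the 10 genes as log2(TPM + 0.1), ordered by median TPM; each point is 1 library, red for WT and blue for Ifnar1-/- monocytes, and lines are group means. Sdc3 and Agrn are the genes whose WT points all lie well above the Ifnar1-/- points, while Sdc2 and Hspg2 lie at the bottom of the scale.

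Sdc3 encodes syndecan-3, a transmembrane core protein best known from neurons. It lies on chromosome 4 (ENSMUSG00000025743.14, chr4:130792537-130826319, plus strand, GRCm38). Its normalized CPM was 698, 364, and 331 in the WT libraries and 64.7, 137, and 90.1 in the Ifnar1-/- libraries. The lowest WT library stood above the highest Ifnar1-/- library, and WT replicate 1 alone was about as high as the other WT libraries summed. The means were 464 ± 203 and 97.1 ± 36.4 (SD, n = 3 each), a ratio of 4.78, and the fitted log2 fold change was 2.26 (SE 0.33, 95% interval 1.52 to 3.00). Leaving out any one library gave log2 fold changes from 1.85, without WT replicate 1, to 2.61, without Ifnar1-/- replicate 2. The sums of endothelial markers (237), T cell markers (130), and IFN-stimulated genes (4869 normalized CPM) were also highest in WT replicate 1. The part of each in the Sdc3 level was not tested. In bulk libraries such as these, fewer cells with a transcript and less of it in each cell cannot be told apart.

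The mean transcript length that RSEM assigned to Sdc3 also differed. It was 2197, 2252, and 2390 bases in the WT libraries and 2427, 2565, and 2644 bases in the Ifnar1-/- libraries, without overlap, and a shorter length in every WT library was seen in 4.64% of the 8947 tested genes whose length varied. GENCODE M21 lists a coding Sdc3 transcript of 4973 bases beside shorter ones of 1624, 659, 644, and 528 bases, so every library was assigned a mixture of these. On the TPM scale, which uses that length, Sdc3 was 247, 181, and 155 in WT and 25.0, 57.8, and 32.0 in Ifnar1-/- libraries, a log2 ratio of group means of 2.34 against 2.26 on the CPM scale. Both antisense genes that overlap Sdc3, Gm12970 and Gm26716, had at most 1 count in any library.

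Sdc4 encodes syndecan-4, a broadly expressed syndecan of focal adhesions (chr2:164424247-164443887, minus strand). It ran the other way, with 281, 316, and 247 normalized CPM in WT and 382, 325, and 358 in Ifnar1-/- libraries. Every WT library was below every Ifnar1-/- library, by a narrow margin between 316 and 325. Its log2 fold change was -0.33 (SE 0.15, 95% interval -0.67 to 0.00) and did not pass the test (edgeR adjusted p = 0.285). Sdc4 was thus 1 of 3 genes of the 8 tested whose groups did not overlap, the others being Sdc3 and Agrn. Of all genes tested, 23.4% had groups that did not overlap, 11.1% with WT higher and 12.2% with WT lower.

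Sdc1 encodes syndecan-1, the marker known as CD138 on plasma cells (chr12:8771323-8793715, plus strand). Its normalized CPM was 109, 44.9, and 68.7 in WT and 72.8, 31.7, and 46.2 in Ifnar1-/- libraries. Replicate 1 was the highest library of each group, and the groups overlapped. The log2 fold change was 0.57 (SE 0.34, 95% interval -0.18 to 1.32, edgeR adjusted p = 0.412), an interval that holds both no difference and one of over 2-fold. In each same-numbered pair the WT library was the higher. A fit with a replicate block, which pairs same-numbered libraries, gave 0.55 (edgeR adjusted p = 0.0948). With DESeq2 and that block it was 0.57 (DESeq2 adjusted p = 0.179). Whether same-numbered libraries share a mouse is not given. The plasma cell genes Jchain and Mzb1 were at 0 counts in every library, while Ighm, the immunoglobulin heavy chain gene of the same marker list, had 4.46 to 9.39 normalized CPM in WT and 2.88 to 8.83 in Ifnar1-/- libraries. The part of such cells in the Sdc1 level was not tested. Sdc2, the syndecan typical of fibroblasts (chr15:32920723-33034935, plus strand), had 0 counts in 5 libraries and 1 count in Ifnar1-/- replicate 3, and fibroblast markers were near 0 as well.

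The makeup of the syndecan pool differed between the genotypes through Sdc3. Sdc3 made up 59.4, 44.3, and 43.9% of syndecan TPM in the WT libraries and 9.79, 19.2, and 13.2% in the Ifnar1-/- libraries. Sdc4 made up 33.3, 51.2, and 48.6% in WT and 80.5, 76.4, and 80.3% in Ifnar1-/- libraries. In WT monocytes the 2 transcripts were thus of similar abundance, with Sdc3 to Sdc4 ratios of 1.78, 0.867, and 0.903, while in Ifnar1-/- monocytes Sdc4 exceeded Sdc3 by 8.22, 3.98, and 6.07 times. The summed syndecan TPM was 416, 409, and 353 in WT and 255, 301, and 242 in Ifnar1-/- libraries. Without Sdc3 the sum was 169, 228, and 198 in WT and 230, 243, and 210 in Ifnar1-/- libraries, and these overlapped. These shares rest on the Sdc3 difference that chose the list and are a description.

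**Figure D2:**
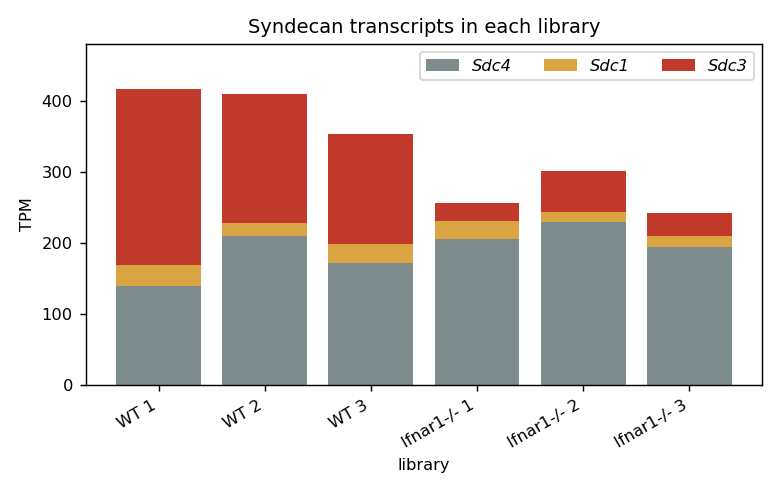
Stacked bars of Sdc4, Sdc1, and Sdc3 TPM in each library, WT at the left and Ifnar1-/- at the right; Sdc2 is too low to draw. The Sdc3 segment is 155 to 247 TPM in WT and 25.0 to 57.8 TPM in Ifnar1-/- libraries, while Sdc4 is 138 to 209 and 194 to 230 TPM.

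Gpc1 encodes glypican-1 (chr1:92831645-92860779, plus strand). Its normalized CPM was 31.4, 11.3, and 19.0 in WT and 6.72, 15.8, and 18.4 in Ifnar1-/- libraries. The groups overlapped, with WT replicate 1 highest and Ifnar1-/- replicate 1 lowest. The log2 fold change was 0.62 (SE 0.40, 95% interval -0.27 to 1.51, edgeR adjusted p = 0.452), and without WT replicate 1 it was 0.17.

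Agrn encodes agrin, a large secreted proteoglycan known for gathering acetylcholine receptors at the neuromuscular junction (ENSMUSG00000041936.18, chr4:156165290-156197488, minus strand). It was a low transcript in these cells, with 190, 118, and 127 counts in WT and 46, 72, and 45 in Ifnar1-/- libraries. As normalized CPM this was 27.0, 25.1, and 25.1 in WT and 7.02, 12.2, and 8.28 in Ifnar1-/- libraries. The WT libraries were close to each other and all above the Ifnar1-/- libraries. The means were 25.7 ± 1.13 and 9.17 ± 2.70 (SD, n = 3 each), a ratio of 2.81, with a log2 fold change of 1.49 (SE 0.22, 95% interval 1.01 to 1.98) and a range from 1.34 to 1.77 when any one library was left out. On the TPM scale it was 3.47, 3.99, and 5.67 against 1.13, 1.90, and 1.19. The mean length assigned to Agrn was 4726 to 6644 bases in WT and 5581 to 6638 in Ifnar1-/- libraries, and these overlapped.

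Hspg2 encodes perlecan, the other basement membrane proteoglycan of the list (chr4:137468769-137570630, plus strand). It had 2, 1, and 1 counts in WT and 3, 1, and 0 in Ifnar1-/- libraries, at or under the floor of 3 counts in every library, so no fold is given. Agrn transcript was therefore detected in these libraries without a measurable level of perlecan. Endothelial cells make basement membrane too, and a sort for GFP-CD45+CD11b+ cells was meant to leave out those of the GFP+ recipients. Endothelial marker sums, given above, were higher in WT, and the part of such cells in the Agrn difference was not tested.

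Sdc3 and Agrn were 2 of the 8 tested genes that passed both thresholds, both upregulated in WT, and 0 were downregulated. Over all genes tested 1.67% were upregulated and 0.462% downregulated by the same rule. As these 2 genes chose the list, nothing is read from that count. DESeq2 and limma-voom made the same 2 calls among the 8, against 3.83% and 1.96% of all genes each tested.

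**Figure D3:**
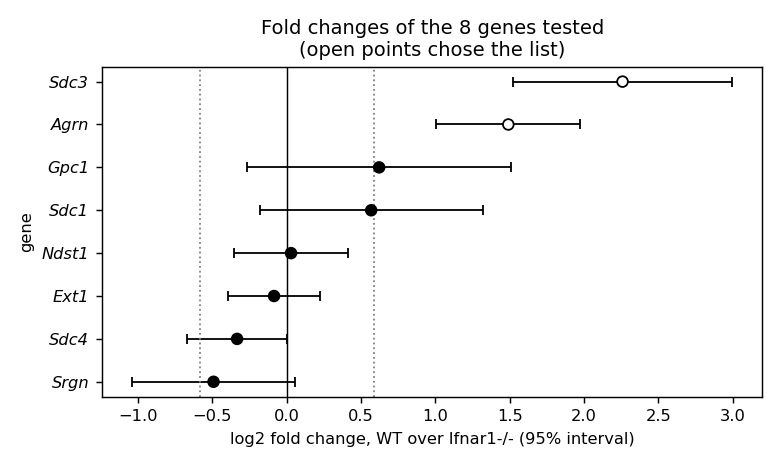
Log2 fold changes, WT over Ifnar1-/-, of the 8 genes tested, with 95% intervals from edgeR (n = 3 libraries per group); dotted lines mark 1.5-fold and open points are the genes that chose the list. The intervals of Sdc3 and Agrn lie wholly above the upper dotted line, and those of Gpc1, Sdc1, Ndst1, Ext1, Sdc4, and Srgn reach 0 or cross it.

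Agrn lies next to an IFN-stimulated gene. Isg15, which encodes a ubiquitin-like protein made in response to type I IFN, lies on the same strand upstream of Agrn (ENSMUSG00000035692.6, chr4:156199424-156200818), with 1935 bases between the end of Isg15 and the first base of Agrn. Isg15 had 157, 95.6, and 90.4 normalized CPM in WT and 10.5, 9.49, and 9.01 in Ifnar1-/- libraries (log2 fold change 3.56, SE 0.24, edgeR adjusted p = 2.0e-05). All WT libraries were above all Ifnar1-/- libraries, as for Agrn, and the log2 fold change of Isg15 was the larger. Beyond Isg15, on the opposite strand and 5815 bases from Agrn, the uncharacterized gene AW011738 had 25, 9, and 27 counts in WT and 1, 3, and 2 in Ifnar1-/- libraries and was upregulated in WT (edgeR adjusted p = 0.0163). Of 3 genes within 20 kb of Agrn, 2 were tested and both were upregulated, while Perm1 had at most 2 counts in any library. Whether reads that run past the end of Isg15 enter the Agrn count was not tested.

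**Figure D4:**
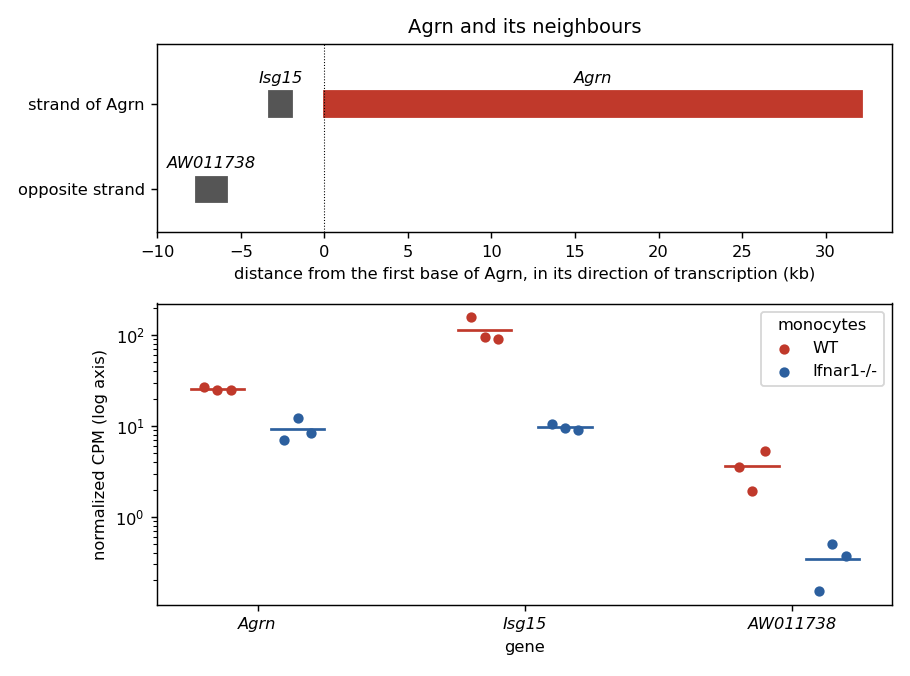
Top, Agrn, Isg15, and AW011738 drawn to scale by distance from the first base of Agrn in kb and by strand; bottom, normalized CPM of each gene on a log axis, with each library as a point (WT red, Ifnar1-/- blue) and the group mean as a line. All 3 genes have WT points above the Ifnar1-/- points, and the Ifnar1-/- points of AW011738 stand for only 1 to 3 counts.

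None of the tested neighbours of the other genes was called, and Sdc2, Gpc1, Hspg2, and Ext1 had no tested neighbour. Sdc3 had 6 annotated genes within 20 kb, of which 1 was tested and 0 were called. The tested neighbours of Sdc1, Sdc4, Ndst1, and Srgn were Pum2, Sys1, Rps14, Vps26a, and Kif1bp, and edgeR called 0 of these 5.

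The bases just upstream of the start sites of Sdc3 and Agrn are printed here because these are the genes that differed, with those of Isg15 for contrast. Each is the 250 bases before the start of the gene, read 5′ to 3′ on the strand of the gene, from RefSeq on GRCm38.p6. Capitals mark GC boxes (GGGCGG on either strand) in Sdc3 and Agrn and the ISRE core (GAAA, any 2 bases, and GAAA again, on either strand) in Isg15. They lie at chr4:130792287-130792536 (plus strand), chr4:156197489-156197738 (minus strand), and chr4:156200819-156201068 (minus strand).
Sdc3: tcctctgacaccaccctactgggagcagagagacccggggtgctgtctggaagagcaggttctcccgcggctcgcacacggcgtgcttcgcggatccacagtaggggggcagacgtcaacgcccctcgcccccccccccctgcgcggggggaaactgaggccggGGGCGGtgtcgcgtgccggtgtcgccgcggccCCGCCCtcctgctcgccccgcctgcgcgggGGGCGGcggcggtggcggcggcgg
Agrn: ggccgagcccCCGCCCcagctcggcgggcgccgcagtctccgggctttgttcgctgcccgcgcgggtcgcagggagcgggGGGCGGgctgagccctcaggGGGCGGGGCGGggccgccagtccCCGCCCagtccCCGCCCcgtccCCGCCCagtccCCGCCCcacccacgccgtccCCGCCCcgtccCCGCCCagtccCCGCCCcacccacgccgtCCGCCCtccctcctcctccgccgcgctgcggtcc
Isg15: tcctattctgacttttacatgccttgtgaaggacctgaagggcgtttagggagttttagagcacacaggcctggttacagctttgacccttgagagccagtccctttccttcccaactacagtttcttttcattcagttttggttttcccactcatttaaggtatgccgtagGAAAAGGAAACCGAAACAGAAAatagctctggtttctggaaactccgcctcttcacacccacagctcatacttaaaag

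The Isg15 sequence holds 3 overlapping matches to the ISRE core in one run, beginning 78, 72, and 66 bases before the start. The Sdc3 and Agrn sequences hold none, and neither holds the GAS core (TTCNNNGAA on either strand). Over windows from 250 bases before to 50 bases after each start, 1131 of 32851 RefSeq promoters held the ISRE core (3.44%) and 2726 held the GAS core (8.30%). A missing match says only that these letters are not in the window. Ndst1 was left out of this search, and no windows were given for Sdc2, Gpc1, and Ext1. Windows were read for Sdc1, Sdc3, Sdc4, Hspg2, Agrn, and Srgn, with 2 starts each for Agrn and Srgn. Of these, 1 held the ISRE core, that of the second Srgn start (chr10:62507708-62508007), with GAAAAAGAAA beginning 220 bases before the start.

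Sdc3 and Agrn shared a high GC content. The Sdc3 window was 77.7% G and C, at percentile 97.9 of all promoter windows, and that of the first Agrn start was 83.3%, at percentile 99.7. Other genes of the list were also rich in G and C, with 67.7% for Sdc4, 66.3% for Sdc1, 70.3% for Hspg2, and 61.3% for the second Agrn start, while Srgn had 51.0 and 45.0% and Isg15 46.3%. The first Agrn window held 12 GC boxes, and 891 of all 32851 windows held 5 or more. GC boxes were counted after the sequences had been seen. Sdc4, which was not higher in WT, held 4 GC boxes, and Sdc3 held 3. Hspg2, at or under the floor in every library, held 5, and Sdc1, which did not pass the test, held 3. The second Agrn window held 2 and both Srgn windows 0.

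Ext1 encodes a subunit of the enzyme that polymerizes heparan sulfate chains (chr15:53064038-53346159, minus strand). Its normalized CPM was 64.3, 66.1, and 68.9 in WT and 80.3, 63.2, and 67.7 in Ifnar1-/- libraries, which overlapped (log2 fold change -0.08, SE 0.14, 95% interval -0.40 to 0.23, edgeR adjusted p = 0.801). On the CPM scale the interval leaves no room for a 1.5-fold difference in either direction. The TPM values differed more, at 8.26, 9.07, and 9.45 in WT and 12.6, 12.5, and 11.2 in Ifnar1-/- libraries, without overlap. The log2 ratio was -0.43 on that scale, as against 0.01 for the median gene. The mean length assigned to Ext1 was 5712, 7663, and 7663 bases in WT and 5715, 5267, and 5484 in Ifnar1-/- libraries, where 7663 bases is the full coding transcript.

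Ndst1 encodes an enzyme that removes acetyl groups from the chain and adds sulfate in their place. Its normalized CPM was 113, 93.1, and 73.6 in WT and 93.8, 99.1, and 81.5 in Ifnar1-/- libraries. The groups overlapped almost fully (log2 fold change 0.03, SE 0.17, 95% interval -0.36 to 0.42, edgeR adjusted p = 0.955). Ndst1 overlaps Rps14 on the opposite strand, and whether the counting used strand is not given in the sources used here. Rps14 had 333 to 521 normalized CPM in WT and 425 to 479 in Ifnar1-/- libraries.

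Srgn was the most abundant gene of the list on both the CPM and the TPM scale (chr10:62493833-62527451, minus strand). Its normalized CPM was 996, 931, and 639 in WT and 1637, 1052, and 920 in Ifnar1-/- libraries. The groups overlapped, with the highest value in Ifnar1-/- replicate 1 and the lowest in WT replicate 3. The log2 fold change was -0.49 (SE 0.25, 95% interval -1.04 to 0.06, edgeR adjusted p = 0.328). Serglycin is also made by neutrophils, which the Ly6G- gate was meant to leave out, and by mast cells. The neutrophil marker sum was highest in WT replicate 3 (2221) and Ifnar1-/- replicate 3 (2595), the libraries with the lowest Srgn of their group. The part of neutrophils or mast cells in the Srgn level was not tested.

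Of 82 further genes, which make, modify, carry, bind, or degrade heparan sulfate or make the related chondroitin chains, 49 were tested and 0 passed the edgeR thresholds. At an unadjusted p under 0.05 there were 7 of 49, against 17.8% of all genes tested, while DESeq2 called 1 and limma-voom 0. Log2 fold changes were positive for 28 and negative for 21, with a median of 0.05 against -0.01 over all genes tested. The groups did not overlap for 5 genes with WT higher and 5 with WT lower, which is close to the background given for Sdc4.

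Among genes that make the precursors and the linker, all 14 were tested, with a median log2 fold change of 0.00. By normalized CPM the most abundant were Xylt1, which starts the linker (0.35, adjusted p = 0.331), and Fam20b, a kinase of the linker (0.18, adjusted p = 0.653). Of 4 chain elongation genes 3 were tested, with a median of 0.03. Extl3, which adds the first sugar of the chain proper, was at -0.17 (adjusted p = 0.612), and Ext2, the partner of EXT1 in the polymerase, was at 0.03 (adjusted p = 0.958). Of 15 chain modification genes only 5 were tested, with a median of -0.18, and 6 had 0 counts in every library. Ndst2, a relative of Ndst1, was at 0.21 (adjusted p = 0.467) and Hs6st1, a 6-O-sulfotransferase, at 0.42 (adjusted p = 0.308). Hs3st3b1, a 3-O-sulfotransferase, was at -0.49 (adjusted p = 0.224), with every WT library below every Ifnar1-/- library, and was the gene of these 5 with an unadjusted p under 0.05. These are edgeR log2 fold changes, WT over Ifnar1-/-.

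The genes that trim and degrade the chains had the highest median of these lists, 0.34 over 10 of 12 genes tested, although 0 passed the test. Hpse encodes heparanase, which cuts heparan sulfate chains, and it had 64.7, 54.6, and 55.3 normalized CPM in WT and 43.1, 40.0, and 33.7 in Ifnar1-/- libraries. Every WT library was above every Ifnar1-/- library. The log2 fold change of Hpse was 0.58 (SE 0.15, edgeR adjusted p = 0.0830), the smallest adjusted p of all 49. Gusb, a lysosomal glucuronidase and among the 2 most abundant genes of the list, went the other way at -0.26 (edgeR adjusted p = 0.350), also without overlap.

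Of 11 other core proteins only Cd44, a receptor that carries heparan sulfate in some of its forms, was tested. It had 988, 875, and 751 normalized CPM in WT and 1129, 784, and 777 in Ifnar1-/- libraries (log2 fold change -0.04, edgeR adjusted p = 0.942). The glypicans Gpc2 to Gpc6 were all below the filter for testing, and Gpc2 had 4 to 13 counts per library. Of 11 partners and sheddases 8 were tested, with a median of 0.06. Sdcbp, which encodes the adaptor syntenin that binds syndecan tails, had 855, 933, and 742 in WT and 939, 734, and 751 in Ifnar1-/- libraries (log2 fold change 0.06, edgeR adjusted p = 0.890). Adam10, a protease that sheds surface proteins, was at -0.31 (edgeR adjusted p = 0.347). Of 15 genes for chondroitin chains 8 were tested, with a median of 0.19. Dse, which epimerizes the chain, was at -0.26 (edgeR adjusted p = 0.441), and Chsy1, which polymerizes it, was at 0.24 (edgeR adjusted p = 0.444).

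**Figure D5:**
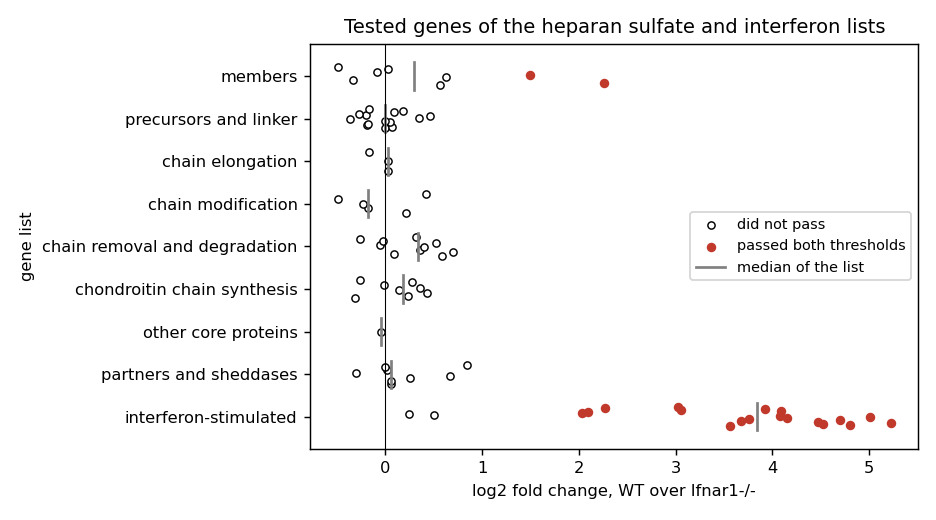
Log2 fold changes, WT over Ifnar1-/-, of every tested gene in each list; open points did not pass both thresholds, filled points did, and grey bars are list medians. The 49 genes outside the 10 and the IFN-stimulated list lie between -0.49 and 0.85, against a median of 3.84 for the IFN-stimulated genes.

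The genes whose pattern over the 6 libraries was most like that of Sdc3, by Pearson correlation of log2 CPM over all genes tested, were Themis2 (r = 0.998), H2-T24 (0.996), and Znfx1 (0.996). Znfx1 had 637, 324, and 377 normalized CPM in WT and 72.7, 140, and 96.5 in Ifnar1-/- libraries, so that WT replicate 1 was highest and Ifnar1-/- replicate 1 lowest, as for Sdc3. Those most like Agrn were Spon1 (0.996), Gm5431 (0.994), and Ap3m2 (0.991). Spon1, which encodes a secreted matrix protein, had 249, 218, and 161 in WT and 10.2, 30.8, and 13.2 in Ifnar1-/- libraries. With 6 libraries in 2 groups these correlations mostly restate the difference between the groups, and they share the same libraries.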

How the data were processed

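The authors aligned paired-end reads with STAR 2.6.0c to GRCm38 and quantified genes with RSEM 1.2.31, per the labels' processing notes. The deposited files give, for each gene and library, an expected count (estimated and not normalized), TPM, and a mean transcript length. The deposited TPM values are corrected for that length and sum to one fixed total per library. The labels name a Takara stranded pico-input kit and the study's methods another stranded total RNA kit. Whether counting used strand is not given in the sources used here.

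Expected counts were rounded. Positions were taken from GENCODE M21 (54165 of 54232 identifiers matched). Of 21265 genes with any count, 11254 passed filterByExpr (minimum count 10) and were tested with edgeR 4.0.16 in R 4.3.3 (TMM, quasi-likelihood test, Benjamini-Hochberg adjustment over all genes tested, no block). A gene passed with an adjusted p no higher than 0.05 and a difference of 1.5-fold or more. Log2 fold changes are WT over Ifnar1-/-. Intervals and the 3-count floor differ in kind: intervals cover the spread between libraries, the floor counting error only. The code was tested on simulated data. Replicates of a genotype differed by more than sampling noise (chi-square per degree of freedom 11.1 to 38.9), so none was the same library sequenced again. This check cannot tell whether they came from separate mice. Alternatives were DESeq2 1.42.0, limma-voom (limma 3.58.1), RLE factors, other filters, removal of mitochondrial and ribosomal RNA genes (the mitochondrial rRNA share was 12.3 to 22.7%), GC and length offsets, a replicate block, an adjusted p alone, and leaving out each library, and for levels a pseudocount of 1 and a TPM filter.

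The genes of the list, the pathway, IFN-stimulated, and marker lists, and the tests were chosen with earlier results of these data known. Named genes were the 10 genes, every pathway gene that passed or otherwise the 2 most abundant of each list, tested neighbours of Sdc3 and Agrn within 20 kb, the 3 genes most correlated with each, and the leading or absent cell type markers. Hpse, Hs3st3b1, the antisense genes, and neighbours of the other genes were added once their values had been seen. Some genes that these rules select are not reported here.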

Additional observations from a re-analysis of the deposited data

How the results depend on the processing

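Sdc3 and Agrn, whose differences chose the list, kept their direction in 16 of 16 alternatives, with log2 fold changes of 1.91 and 1.16 under offsets for GC content and length, and nothing is read from their calls. The number of genes called, 240, was 419 with DESeq2 and 872 without a filter on low counts, and it ranged from 119 to 245 when 1 library was left out (148 without WT replicate 3, 119 without Ifnar1-/- replicate 1, and 120 without Ifnar1-/- replicate 3, fits that rest on 5 libraries). The cause of the other changes was not tested. The number of pathway genes called, 0, was 1 with DESeq2 and 1 with DESeq2 and a replicate block, 2 without the filter, and 0 to 0 when 1 library was left out. Ndst1, at 0.03, was -0.30 with GC and length offsets, -0.30 with those offsets and the replicate block, and -0.13 to 0.20 when 1 library was left out, and Ext1, at -0.08, was -0.14 to 0.04 (0.039 without Ifnar1-/- replicate 1). Neither passed the test in any of these fits, and the cause was not tested. Sdc1, Sdc4, Gpc1, and Srgn kept their direction and did not pass both thresholds in 16 of 16 alternatives. Without the filter on low counts, Sdc1 passed the threshold on adjusted p (edgeR adjusted p = 0.0268) but not the one on fold, at a log2 fold change of 0.57.

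The labels do not say whether same-numbered WT and Ifnar1-/- libraries come from the same mice. The correlations of their deviations from the group means were 0.0906, 0.0278, and 0.275, the last being the highest of any pair. WT replicate 1 correlated as well with Ifnar1-/- replicate 2 (0.0920), and the other differently numbered pairs ran from -0.196 to 0.0180. A fit with a replicate block called 220 genes, with log2 fold changes of 2.22 for Sdc3 and 1.52 for Agrn. For the levels, means of same-numbered libraries gave values with no test. The filter of at least 1 TPM gave no value for the 2 pairs with Hspg2 or Sdc2. Depth limits Hspg2 and Sdc2, which were at or under 3 counts in every library, and Agrn in the Ifnar1-/- libraries, with 45 to 72 counts.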
